A study of Mus musculus with 22 samples.

Results

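The step from large Pro-B to large Pre-B cells was followed in littermate control mice of the tet-LIN28B line. The members were the libraries of the control mice that gave both stages, which were 6 of the 22 libraries of the series and came from 3 of its 15 mice, and each large Pre-B library was compared with the large Pro-B library of the same mouse. The controls were adult mice heterozygous for Rosa26 rtTA*m2 that lacked the tetO-LIN28B transgene, and they ate chow with doxycycline (200 mg/kg) for 10 days, so the transactivator and the drug were present in all groups and an untreated mouse was not part of the design. Bone marrow was depleted of cells with CD3, TER119 or GR1, and B cell precursors (CD93+ IgM-) were sorted into Pro-B cells with cKIT on their surface and Pre-B cells without it, of which the large cells by forward scatter were used. The tet-LIN28B mice with both stages (8 libraries of 4 mice) carry in addition a doxycycline-inducible human LIN28B cDNA in the Col1a locus and were used here only for the comparison of genotypes.

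Large Pro-B cells rearrange the immunoglobulin heavy chain with the RAG recombinase and add bases at its joints with terminal transferase. A productive heavy chain pairs with the surrogate light chain to form the pre-B cell receptor (pre-BCR), whose signals, together with IL-7, drive the division of large Pre-B cells, end expression of the surrogate light chain and prepare the cells for light chain rearrangement. Both stages are cycling cells, so the comparison follows a change of receptor and signalling state between dividing populations.

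Gene-assigned reads came to 15.9 to 23.3 M per library for large Pro-B and 21.3 to 28.1 M for large Pre-B cells. All values below are normalized counts put on a common scale over the 6 libraries, and they compare a gene between libraries and not different genes, because they are not divided by gene length. Each log2 change is a difference of log2(value + 1), so that genes with few reads appear to change less than they did. It is given ± the moderated SE of limma (n = 3 mice), which draws on the variance of all genes tested. This SE is not the spread of the 3 mice and can be much smaller. For Polm, given below with an SE of 0.54, the log2 changes of mice 1, 2 and 3 were 3.30, 5.31 and 7.62. The stages were separated by the first principal component, with 45.9% of the variance, and libraries of the same stage correlated at 0.922 to 0.953 across genes. Markers of the sorted cells were present: Cd79a was at 11469 to 12298 in large Pro-B and 11376 to 13393 in large Pre-B cells, Cd93 was at 1929 to 3054 in the 6 libraries, and Kit, which the sort was gated on and which is thus no finding, was at 1274, 1270 and 664 against 13.3, 49.2 and 76.7 in mice 1, 2 and 3. The libraries of a stage were deposited in a table of their own and the sequencer of each library is not known, so stage and any batch of library preparation or sequencing cannot be told apart.

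Of 14406 genes tested, 1124 were higher (7.80%) and 1676 lower (11.6%) in large Pre-B cells at an adjusted p under 0.05 (limma with the mouse as block, Benjamini-Hochberg adjustment), so 19.4% were called. The change was at least 4-fold for 487 of the higher and 335 of the lower genes. The values of the stages did not overlap in 4049 of the genes tested (28.1%), in either direction, so a lack of overlap alone does not set a gene apart. Without the mouse as block, 332 were higher and 563 lower, and without mouse 2, 572 and 1105 (without mouse 1, 643 higher). On the deposited scales, with no rescaling between the stage tables, 961 were higher and 2394 lower, and the share of calls that were higher went from 40.1% to 28.6% as the median of all genes moved from -0.008 to -0.159 on the log2 scale. In bulk RNA a lower level can come from fewer cells with a transcript or from less of it in each cell, and these cannot be told apart. The plot of list shares gives the called members of each gene list described next. Each count of called members below stands beside these shares of 7.80% higher and 11.6% lower over all genes tested.

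**Figure D1:**
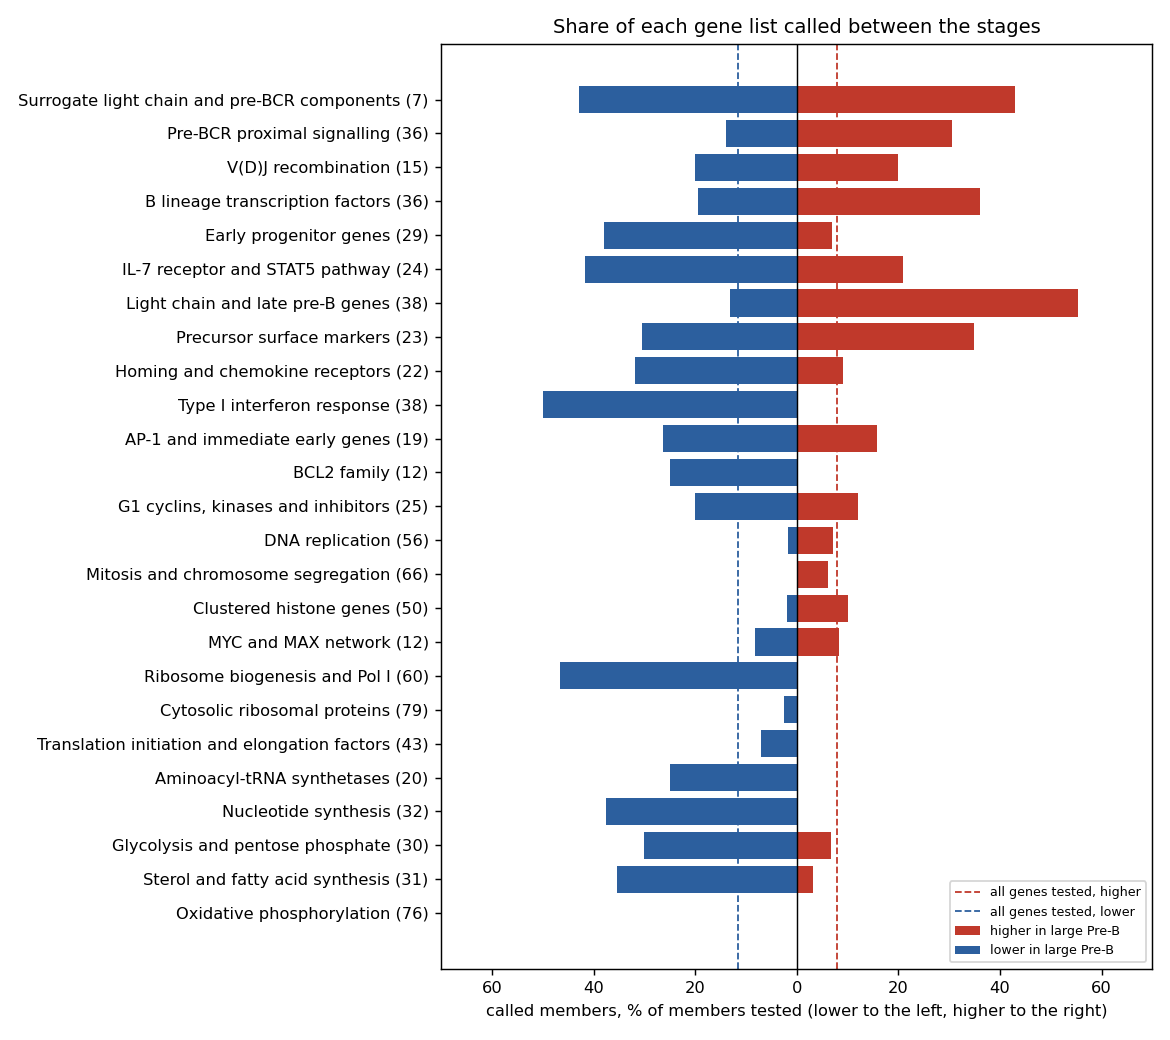
Share of the tested members of 25 gene lists (number tested in parentheses) called lower (blue, to the left) or higher (red, to the right) in large Pre-B than in large Pro-B cells of the 3 control mice, with dashed lines at the shares over all 14406 genes (11.6% lower, 7.80% higher). Late pre-B genes reached farthest to the right (21 of 38), interferon response and ribosome biogenesis genes lay to the left with no higher member, and no oxidative phosphorylation gene was called.

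The surrogate light chain fell in every mouse. Igll1, its lambda5 chain (chr16:16860671-16863985), was at 32918, 27795 and 36493 in large Pro-B cells of mice 1, 2 and 3 and at 8461, 7349 and 11425 in their large Pre-B cells. Vpreb1, its variable-like partner (chr16:16868401-16869255), went from 12195, 10354 and 11245 to 2429, 2513 and 3198, and its near copy Vpreb2 from 1297, 1665 and 1647 to 136, 249.7 and 362. None of these genes overlapped between the stages (28.1% of all genes tested did not), and the log2 changes were -1.85 ± 0.15, -2.06 ± 0.15 and -2.72 ± 0.23 (SE). Vpreb1 and Vpreb2 are similar in sequence, so the division of reads between them is uncertain. Vpreb3, which stays with the receptor in the endoplasmic reticulum, was the exception in the family at 5177, 6231 and 5627 against 5814, 9115 and 10409 (log2 change 0.53 ± 0.16, adjusted p = 0.036), a call that was lost without mouse 2 or mouse 3.

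Among the other receptor chains the mu and Ig-beta genes were higher. Ighm, the mu heavy chain, was at 111130, 87061 and 75037 in large Pro-B and 237190, 191050 and 115630 in large Pre-B cells (log2 change 0.95 ± 0.20), and Cd79b, a signalling chain of the receptor, at 19234, 14034 and 9817 against 28793, 26661 and 17530 (0.78 ± 0.15). Its partner Cd79a was not called. The calls of Ighm and Cd79b were lost without mouse 2 (adjusted p = 0.196 and 0.089) and without the block (0.106 and 0.143). Ighm also stands beside the plasma cell transcripts described at the end, whose part in it was not tested.

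Of 36 proximal signalling genes of the pre-BCR, 11 were higher and 5 lower (8 and 1 without the block), against 7.80% higher and 11.6% lower over all genes. The count of lower genes was thus near the share over all genes. Syk, the kinase that the receptor recruits, rose from 8676, 7470 and 4794 to 16636, 17872 and 12318 (log2 change 1.19 ± 0.15), and the SRC family kinase Blk from 2039, 2515 and 2197 to 10283, 8446 and 6072 (1.85 ± 0.17). Rasgrp1, an exchange factor that links diacylglycerol to RAS (chr2:117279983-117342877), was at 166, 20.6 and 17.8 in large Pro-B cells and at 1526, 763 and 841 in large Pre-B cells, a log2 change of 4.61 ± 0.40. Fcrla, an intracellular Fc receptor-like protein of B cells, rose from 672, 380 and 221 to 8940, 8320 and 4761 (4.20 ± 0.18). The inhibitory receptors Cd72 and Siglecg rose as well, by 2.32 ± 0.16 and 1.64 ± 0.16 on the log2 scale. The adaptor Blnk, which joins SYK to downstream effectors, was lower by 0.67 on the log2 scale, at 32438, 21806 and 18337 against 22155, 15301 and 9441, with a wide overlap, and the call was lost without mouse 2 (adjusted p = 0.0501). Btk was at 4025 to 8861 and 4069 to 10257 and did not pass the test.

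**Figure D2:**
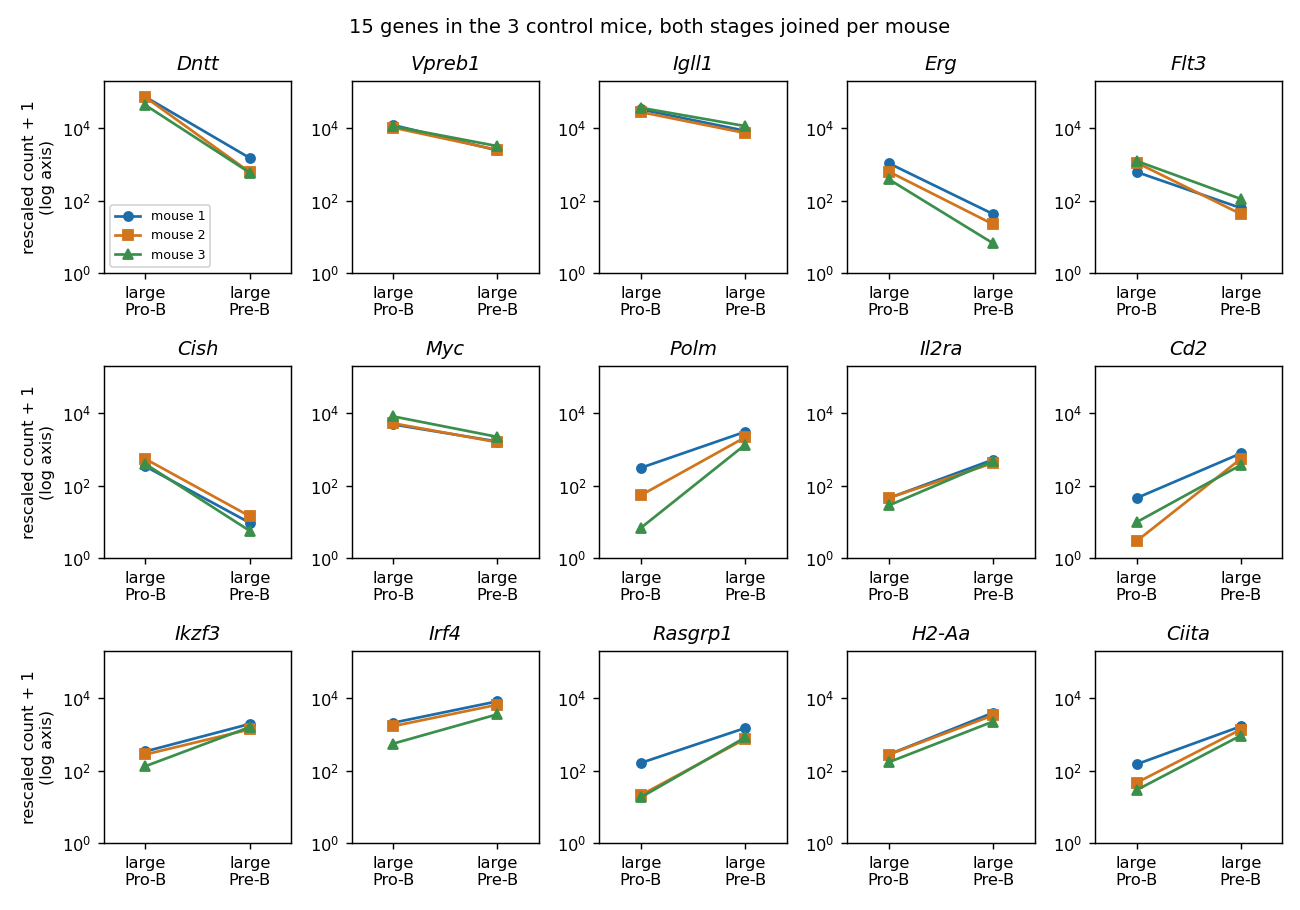
Levels of 15 genes (normalized count on the common scale + 1, log axis) in large Pro-B and large Pre-B cells, with a line for each of control mice 1, 2 and 3. In these 15 genes all 3 lines run the same way, down from Dntt to Myc and up from Polm to Ciita.

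In the recombination machinery Dntt and Polm, which encode polymerases that act at the joints, changed most. Dntt, terminal transferase (chr19:41029275-41059525), which adds untemplated bases to heavy chain joints, was at 72806, 71181 and 43182 in large Pro-B cells and at 1509, 612 and 591 in large Pre-B cells (log2 change -6.21 ± 0.20, adjusted p = 8.7e-10). Polm (chr11:5827860-5838832), the related polymerase mu, moved the other way, from 313, 54.0 and 5.92 to 3097, 2185 and 1363 (5.41 ± 0.54). In both genes the stages did not overlap, as in 28.1% of all genes tested. Poll, polymerase lambda, was at 932, 1048 and 809 against 455, 685 and 476 (-0.80 ± 0.20), and this call was lost without mouse 1 (adjusted p = 0.0998).

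Rag1 did not pass the test, at 449, 552 and 133 in large Pro-B and 302, 403 and 285 in large Pre-B cells. Rag2 was at 5049, 4773 and 2995 against 3257, 3874 and 1679 (log2 change -0.59 ± 0.16), a call lost without mouse 1 (adjusted p = 0.106). Lig4, the ligase that closes joints, rose from 1932, 1129 and 648 to 4944, 2957 and 1854 (1.42 ± 0.16). The nuclease gene Dclre1c, also called Artemis, was the remaining member called higher (0.71 ± 0.19), and 9 of the 15 genes of this list were not called. Without the block 1 gene of the list was higher and 1 lower, and without mouse 1, 2 and 1.

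Among 36 B lineage transcription factors, 13 were higher and 7 lower (7 and 4 without the block). Among those that rose with no overlap between the stages were Ikzf3 (Aiolos), at 345, 284 and 134 against 1978, 1398 and 1619 (log2 change 2.80 ± 0.25), Irf4, at 2136, 1722 and 566 against 8332, 6710 and 3652 (2.20 ± 0.18), and Spib, at 3404, 1832 and 2001 against 14834, 13053 and 7645 (2.30 ± 0.18). Aiolos and its relative Ikaros (Ikzf1, 0.96 ± 0.16) are known to silence surrogate light chain genes, and IRF4 to open the light chain loci. Bach2 and Bcl6, repressors that act in pre-B cells after pre-BCR signalling, rose too, Bach2 from 2799, 2649.8 and 1364 to 7451, 6789.5 and 6019 and Bcl6 from 109.7, 157 and 93.8 to 236, 400.4 and 321. Arid3a, a factor of early B cells, rose from 249.6, 148 and 114 to 1060.1, 970.4 and 557 (2.36 ± 0.24), and the endogenous mouse Lin28b was low in both stages, at 13.0, 5.89 and 7.90 against 13.3, 22.2 and 42.6, and did not pass the test (adjusted p = 0.276).

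Erg, an ETS factor of stem and early B progenitors (chr16:95359169-95586600), showed the largest fall in this list, from 1078, 635 and 389 to 41.9, 21.4 and 5.68 (log2 change -5.12 ± 0.40). Lef1, a WNT pathway factor of early B precursors, fell from 12784, 11125 and 12571 to 2999, 3804 and 3959. Ebf1 and Foxo1, which specify the lineage, were lower by 0.78 and 0.83 on the log2 scale, although their levels overlapped between stages (Ebf1 at 5359 to 14747 and 3291 to 8967), and both calls were lost without the block. Pax5, Tcf3, Irf8, Myb and Sox4 did not pass the test, with log2 changes between -0.22 and 0.34. The E protein inhibitors diverged, with Id2 at 101, 55.0 and 89.9 against 378, 591 and 354 (2.42 ± 0.36) and Id3 at 6060, 4427 and 5353 against 2128, 1997 and 2507 (-1.25 ± 0.15).

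Genes of earlier progenitors were mostly lower: 11 of 29 tested were called lower and 2 higher (6 and 1 without the block), and the list had a median log2 change of -0.94 against -0.008 over all genes. Flt3, the receptor of FLT3 ligand, fell from 619, 1123 and 1246 to 61.9, 42.0 and 111 (-3.83 ± 0.32), and the homeobox gene Hhex from 1199, 906 and 1083 to 409, 383 and 469. The higher members were Ly6d, a marker of committed lymphoid progenitors, and Gfi1b, a repressor at 371, 247.5 and 169.8 in large Pro-B and 1166, 1460 and 958 in large Pre-B cells. Cd34 and Lmo2 did not pass the test.

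Surface markers that the field uses to tell the stages apart moved in both directions. Il2ra (CD25) was at 44.7, 45.2 and 27.6 in large Pro-B and 524, 421 and 478 in large Pre-B cells (log2 change 3.59 ± 0.35), Cd2 at 44.7, 1.96 and 8.89 against 781, 553 and 372 (5.63 ± 0.58), and Cd24a rose by 1.63 ± 0.16. Spn (CD43) fell from 957, 1517 and 1290 to 439, 647 and 754 (-1.04 ± 0.19). Of 23 precursor surface markers tested, 8 were higher and 7 lower (4 and 6 without the block, and 5 higher without mouse 1). Cd2 was not tested without mouse 1. Kit, the gated gene, is among the lower genes of this list and of the progenitor list.

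IL-7 signals through IL7R, JAK1, JAK3 and STAT5, and the SOCS family genes and Cish are induced by STAT5 and feed back on the receptor. Of 24 genes of this pathway, 10 were lower and 5 higher in large Pre-B cells (5 and 2 without the block). Cish carries a tandem of the STAT5 motif TTCNNNGAA at its annotated start, and Socs3 a single match before it. They are shown because both genes fell. The RefSeq sequence (GRCm38.p6, the build called mm10) is written 5′ to 3′ on the strand of the gene with the motif in capitals.
Cish, chr9:107296654-107296683, plus strand: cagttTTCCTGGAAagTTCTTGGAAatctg
Socs3, chr11:117969462-117969570, minus strand: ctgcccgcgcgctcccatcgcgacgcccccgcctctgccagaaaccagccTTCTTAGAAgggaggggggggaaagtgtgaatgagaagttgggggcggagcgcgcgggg

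Searched on both strands, the motif occurs in 8.30% of the 32851 RefSeq promoter windows of 300 bases (9.55% of genes), and in 5 of the 21 pathway genes that have a window, of which 3 were higher (Il7r, Bcl6 and Mtor) and 2 lower. Cish was at 342, 550 and 399 in large Pro-B cells and at 8.56, 13.5 and 4.74 in large Pre-B cells, a log2 change of -5.51 ± 0.48. Socs3 went from 70.7, 152 and 150.1 to 17.1, 29.3 and 3.79 (-3.10 ± 0.66), and Socs2 from 1996, 1746 and 2557 to 889, 661 and 1076 (-1.27 ± 0.17). These 3 feedback genes did not overlap between the stages, as in 28.1% of all genes tested.

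Jak3 and both STAT5 genes were lower too, while Jak1 was not called. Jak3 was at 3762, 3051 and 2413 against 1173, 835 and 1115 (log2 change -1.55 ± 0.18), Stat5a at 2036, 1617 and 1108 against 987, 828 and 748 (-0.86 ± 0.18) and Stat5b lower by 0.54 on the log2 scale. The receptor chain Il7r itself was higher, at 5189, 3655 and 3669 against 10774, 8622 and 4156 (0.82 ± 0.19), with mouse 3 nearly level, and this call was lost without mouse 2 (adjusted p = 0.0908). Socs1, the family member that rose, was at 36.1, 15.7 and 27.6 against 89.5, 154.6 and 171. Mtor rose by 1.59 ± 0.16 and its partner Rptor fell by 0.85 on the log2 scale. Without mouse 2 the pathway held 3 higher and 7 lower genes, and Cish was no longer tested because it did not pass the filter.

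**Figure D3:**
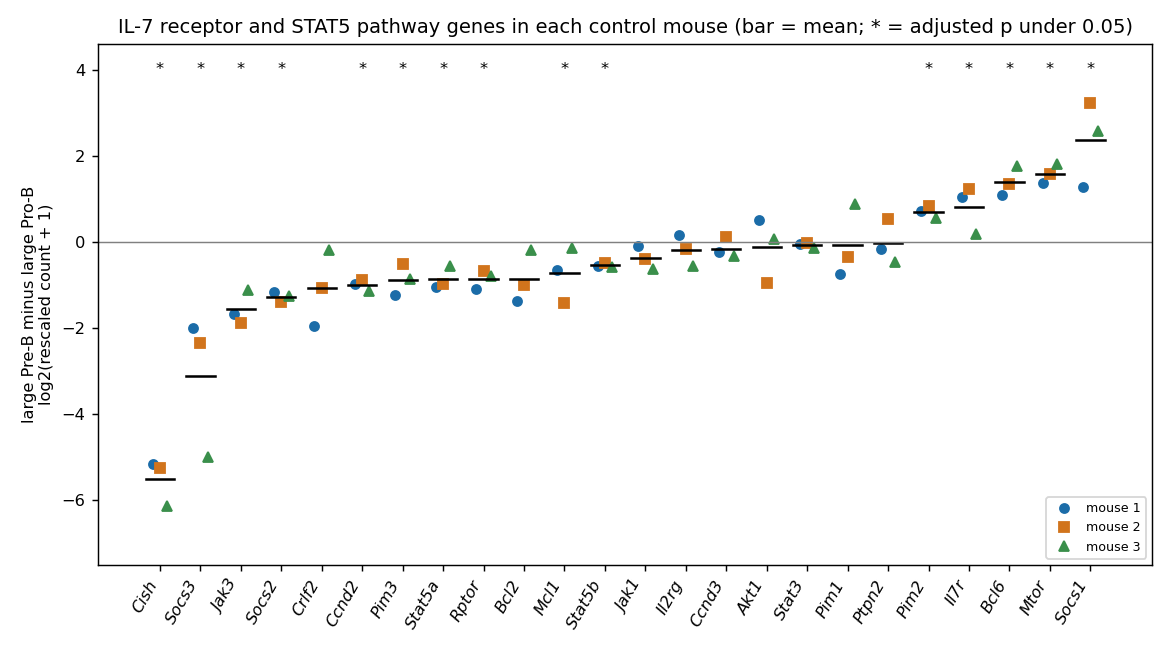
Difference between large Pre-B and large Pro-B cells in each control mouse (log2 of the normalized count on the common scale + 1) for the 24 genes of the IL-7 receptor and STAT5 list, ordered by their mean (black bar), with asterisks at an adjusted p under 0.05. Cish, Socs3, Jak3 and Socs2 lie at the lower end in all 3 mice and Socs1, Mtor and Bcl6 at the upper end.

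Myc and genes of ribosome production were lower in large Pre-B cells. Myc (chr15:61985341-61990361) was at 4922, 5300 and 8211 in large Pro-B cells and 1666, 1590 and 2235 in large Pre-B cells, a log2 change of -1.73 ± 0.15, while Mycn was at 13.8 to 121 and 51.4 to 90.4 and did not pass the test. Mxd4, which competes with MYC for MAX, rose from 297, 309 and 272 to 496, 605 and 644 (0.98 ± 0.23). Of the ribosome biogenesis and RNA polymerase I genes, which MYC is known to drive, all 60 had a log2 change below 0, from -1.39 to -0.13, and 28 were called lower against the 11.6% of all genes. Rrs1 was at 1981, 3285 and 4420 against 738, 1158 and 1869 (-1.39 ± 0.16), Rrp1b at 2128, 2200 and 2511 against 999, 1020 and 1044 (-1.15 ± 0.16), and the rRNA methyltransferase Nop2 at 4306, 4874 and 6096 against 2764, 2322 and 3184 (-0.88 ± 0.15). The count was 20 to 28 with 1 mouse left out, 27 after quantile normalization, and 4 without the block.

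Cytosolic ribosomal protein genes shifted less, with 2 of 79 called lower, among them Rplp2, and a median log2 change of -0.30. That count depended on the setting: it was 19 on the deposited scales and 24 without mouse 3, and 0 without mouse 1 or mouse 2. Of 43 translation factors 3 were lower and none higher, a share below the 11.6% of all genes, and of 20 aminoacyl-tRNA synthetases 5 were lower, at log2 changes of -0.48 to -0.66. Both counts were 1 without mouse 2 and 0 without the block, and 3 synthetases were called without mouse 1 or mouse 3.

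Biosynthetic enzymes were lower in several pathways. In nucleotide synthesis 12 of 32 genes were lower and none higher (7 without mouse 2, 2 without the block), led by Impdh1, an enzyme of guanine nucleotide synthesis (chr6:29200436-29216364), at 14208, 11593 and 10246 against 2013, 1862 and 2641 (log2 change -2.47 ± 0.18). Tyms, thymidylate synthase, fell from 7320, 7747 and 9396 to 3636, 3626 and 4021. In glycolysis and the pentose phosphate pathway 9 of 30 were lower (5 without mouse 2 or without the block), with Hk1 at 4296, 2780 and 2102 against 1019, 932 and 877 (-1.64 ± 0.18) and Pdk1 at 2516, 1752 and 1509 against 904, 725 and 696, and 2 were higher, Pgls and the lactate transporter Slc16a1. In sterol and fatty acid synthesis 11 of 31 were lower (8 without the block), among them the regulators Srebf2 (-1.43 ± 0.16) and Srebf1 (-1.14 ± 0.17), and Scd1 was higher. None of 76 nuclear oxidative phosphorylation genes was called by limma, at a median log2 change of -0.15, and edgeR called none of them. On the deposited scales 3 were called lower and without mouse 3, 1.

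**Figure D4:**
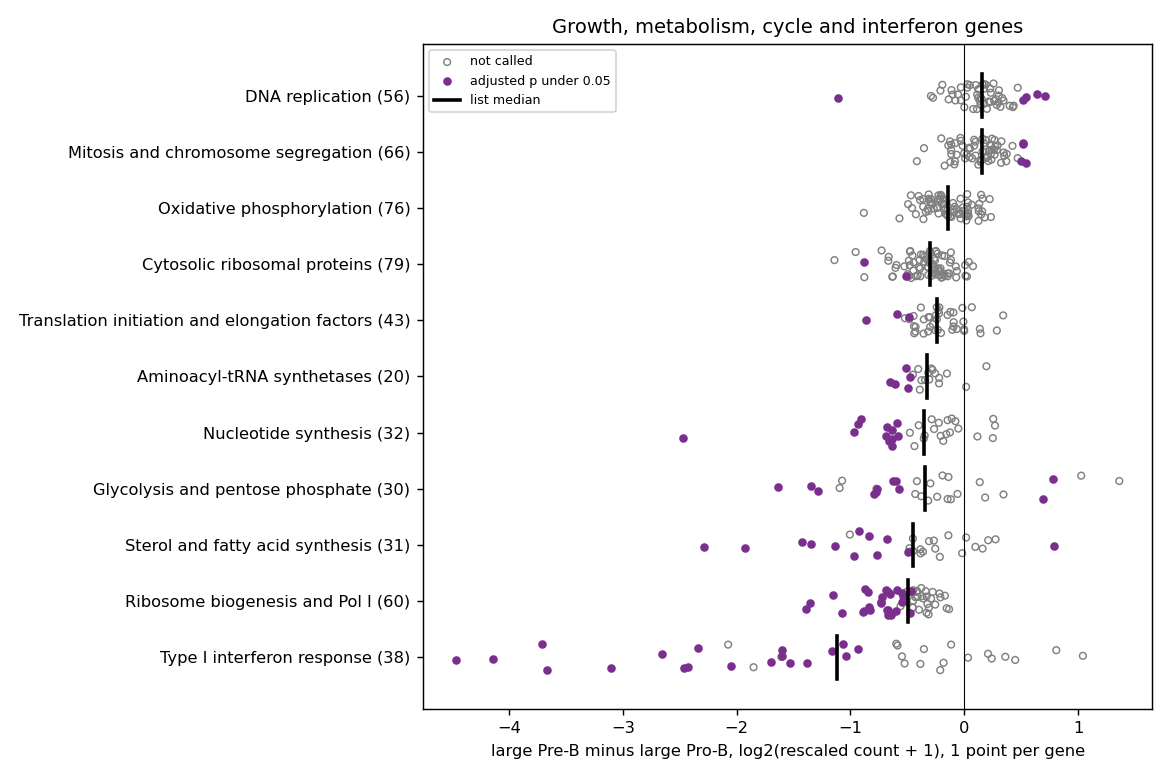
Log2 change of each tested gene (large Pre-B minus large Pro-B, 3 control mice, 1 point per gene) in 11 lists, filled where the adjusted p was under 0.05, with a black bar at the list median. All 60 ribosome biogenesis genes lie left of 0, interferon response genes spread down to -4.46, and replication and mitosis genes sit around a median of 0.16.

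Few genes of the division machinery passed the test. Of 56 DNA replication genes 4 were higher and 1 lower, and of 66 mitosis genes 4 were higher and none lower, against 7.80% higher and 11.6% lower over all genes. Mki67 was at 25329, 31269 and 17727 against 34657, 31634 and 20944, Mcm5 at 19867 to 28037 against 20953 to 32450, and Rrm2 at 32568 to 48577 against 36575 to 61485, and none of these passed the test. The higher replication genes included Rfc3, Wdhd1 and Orc5, at log2 changes of 0.51 to 0.64, and the lower one was Tyms. The 4 higher replication genes and the 4 mitosis genes (Ccnb2, Sgo2a, Cenpn and Cdc25b) were lost without mouse 2 and without the block, and without mouse 1 each list had 1 higher gene. Without mouse 3, 9 replication and 11 mitosis genes were higher, after quantile normalization 10 and 9, and on the deposited scales 1 and 0, with 1 mitosis gene lower.

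Among regulators of G1, the D cyclins differed. Ccnd2, a cyclin downstream of IL-7, fell from 6092, 6984 and 8277 to 3115, 3764 and 3754, and its kinase Cdk6 from 3544, 3378 and 3432 to 1537, 1972 and 1761 (-0.98 ± 0.16). Ccnd3, the D cyclin on which pre-B cells depend, was at 41445 to 67222 and 42982 to 53776 and did not pass the test. Cdkn1a (p21) was lower at 984, 1201 and 1523 against 431, 791 and 795, and Cdkn1b (p27) was not called. In all, 5 of 25 G1 genes were lower and 3 higher (2 and 0 without the block, and 1 higher without mouse 1 or mouse 2, with 3 lower without mouse 2).

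Genes known from later pre-B cells were mostly higher in the large Pre-B cells. Of 38 tested genes of this list 21 were higher and 5 lower, with a median log2 change of 1.59 (18 to 23 higher and 2 to 5 lower with 1 mouse left out, 17 and 0 without the block). The MHC class II group rose together: Ciita, the coactivator that class II genes need (chr16:10480014-10531064), went from 151.5, 46.2 and 28.6 to 1696, 1389 and 946 (4.45 ± 0.32), H2-Aa from 283, 283 and 173 to 4022, 3418 and 2301 (3.71 ± 0.18), Cd74, the invariant chain, from 753, 641 and 390.0 to 5211, 4754 and 3043 (2.88 ± 0.16), and H2-Eb1 from 109.7, 86.4 and 77.0 to 1557, 1172 and 594 (3.50 ± 0.27). H2-Ab1 rose by 1.70 ± 0.15, and H2-DMa and H2-Ob were not called. Lower members included Ltb, lymphotoxin beta, at 153, 173 and 277 against 34.3, 67.4 and 72.9, and the chemokine receptor Cxcr5 (-1.97 ± 0.52). The promoters of H2-Aa and H2-Eb1 are shown because these genes rose together and both hold the Y box CTGATTGG of class II promoters, in capitals, 44 to 51 and 55 to 62 bases before the annotated start.
H2-Aa, chr17:34287824-34287924, minus strand: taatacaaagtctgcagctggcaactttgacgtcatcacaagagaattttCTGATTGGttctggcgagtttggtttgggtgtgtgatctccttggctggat
H2-Eb1, chr17:34305755-34305862, plus strand: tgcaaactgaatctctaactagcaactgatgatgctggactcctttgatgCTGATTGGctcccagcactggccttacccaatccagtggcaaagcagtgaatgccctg

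On both strands the Y box letters occur in 4.10% of all promoter windows (4.70% of genes). They were found in 2 of the 4 class II list genes that have a window, and a match is a description of the sequence only.

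Light chain constant genes were higher in large Pre-B cells. Igkc was at 358, 276 and 390.0 against 1853, 7638 and 4847 (log2 change 3.60 ± 0.32, and 2.98 without mouse 2), and Iglc1, Iglc2 and Iglc3 were called higher at Pro-B levels under 30 in each library. Kappa variable segments were low, with a summed level of 73.6, 44.2 and 21.7 in large Pro-B and 96.1, 528 and 245 in large Pre-B cells over 46 segments, none of which reached the level for a test. Of 96 heavy chain variable segments 7 were tested and 5 were higher, with sums of 96.7, 197 and 81.0 against 630.0, 1069.5 and 642. The 5 were under 10 in every large Pro-B library and passed the filter only through large Pre-B cells. Their direction was thus fixed by the filter, and the count is no separate result. The near-identical segments of these families can share reads, so values of single segments are uncertain. These 5 could not be tested with any of the 3 mice left out. The filter needs 10 in at least 3 libraries, and fewer than 3 large Pre-B libraries then remain.

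Type I interferon response genes were lower as a group, with 19 of 38 tested called lower and none higher (14 to 16 with 1 mouse left out, 12 without the block) and a median log2 change of -1.12. Usp18, which restrains the interferon receptor, was at 385, 679 and 893 against 20.9, 159 and 104, a change of -3.11 ± 0.37. Rtp4 went from 201, 226 and 438 to 5.71, 34.1 and 36.9, Gbp2 from 1221, 757 and 399 to 219.8, 174 and 60.6, and Oas1a, an RNA-sensing synthetase, from 1192, 902 and 993 to 147.5, 255 and 217. Stat2 and Irf9, which carry the interferon signal, did not pass the test, with log2 changes of 0.24 and -0.35. Oas1a and Oas3, both lower, hold the interferon-stimulated response element, GAAA followed by any 2 bases and GAAA again and shown in capitals, just before their start, in Oas1a as an overlapping pair.
Oas1a, chr5:120907526-120907595, minus strand: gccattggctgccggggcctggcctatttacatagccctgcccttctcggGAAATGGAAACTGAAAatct
Oas3, chr5:120777675-120777784, minus strand: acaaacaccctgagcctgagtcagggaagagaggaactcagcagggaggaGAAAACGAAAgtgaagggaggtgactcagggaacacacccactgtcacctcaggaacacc

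On both strands the element occurs in 3.44% of all promoter windows (3.99% of genes) and in 17 of the 30 interferon genes of the list with a window. Of these 17, 8 were called lower and none higher. The whole list, with 19 of 38 tested genes lower, includes genes with the element, and genes without it were not counted separately. Whether genes with the element were called lower more often was thus not tested.

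Homing and survival genes changed member by member. Of 22 homing genes 7 were lower and 2 higher (3 and 1 without the block, and 4 lower without mouse 1 or mouse 2). The share of higher genes was near the 7.80% of all genes, beside 11.6% lower over all genes. Ccr7, a receptor for lymph node chemokines, rose from 1010, 1341 and 1120 to 4115, 3915 and 3184 (log2 change 1.69 ± 0.17), Cd44 rose by 1.04 ± 0.18, and Itgb1, the beta1 integrin, fell from 3247, 2977 and 3024 to 1547, 1695 and 1567. Cxcr4 was at 435 to 1031 and 784 to 1148 and did not pass the test. In the BCL2 family the proapoptotic gene Bok (chr1:93685575-93695770) fell from 1879, 1665 and 1907 to 121, 169.7 and 246 (-3.39 ± 0.23), Bid and Mcl1 were lower, and Bcl2, Bcl2l1 and Bcl2l11 were not called. The call of Mcl1 was lost without mouse 2.

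Immediate early genes moved in both directions, with 3 of 19 higher and 5 lower (2 and 0 without the block, and 2 lower without mouse 1). Btg2, an antiproliferative gene, rose from 2899, 2265 and 1488 to 6778, 7064 and 4374, and Fos from 1867, 3519 and 1902 to 3614, 9548 and 3527. Ier2 fell from 1128, 1412 and 2618 to 409, 1012 and 1096. Among clustered histone genes, whose main transcripts lack a poly-A tail, 5 of 50 were higher, a share near the 7.80% of all genes, and 1 lower (2 and 0 without mouse 2, none without the block).

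The genes with the largest changes by the rule for named genes included several outside these lists. Eya2, a transcriptional coactivator with phosphatase activity (chr2:165595028-165771727), was at 166, 212 and 153 in large Pro-B cells and at 0 in all large Pre-B libraries, at least 65.8-fold lower with a floor of 3 reads in each library. Mmrn1, multimerin 1, fell from 2493, 1404 and 1254 to 18.1, 3.17 and 36.0 (log2 change -6.84 ± 0.49). Vipr2, a receptor for vasoactive intestinal peptide, fell from 225, 186 and 179 to 6.66, 4.76 and 0, and Gas6, a ligand of TAM receptors, from 149, 115 and 55.3 to 3.81, 0 and 0. Eya2, Vipr2 and Gas6 were under 10 in every large Pre-B library and passed the filter only through large Pro-B cells. Their direction was thus fixed by the filter, and they could not be tested with any of the 3 mice left out. At the other end were Cldn10, a claudin, at 26.0, 3.93 and 4.94 against 310, 333 and 332 (5.14 ± 0.58), Adam19, a membrane protease, at 79.4, 20.6 and 23.7 against 1198, 576 and 544 (4.37 ± 0.33), and Dtx1, a regulator of Notch signalling, at 14.4, 16.7 and 0 against 118, 122 and 114. In Polm, Rasgrp1 and Ciita the large Pro-B library of mouse 1 was the highest of its stage, at 313, 166 and 151.5.

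Markers of other cells were not even over the libraries. The mature B and plasma cell list summed to 15394 to 19480 in large Pro-B and to 29895, 75056 and 34792 in large Pre-B cells of mice 1, 2 and 3, with 6 of 13 tested members higher and 1 lower, and the higher members include Irf4 and Ccr7, which pre-B cells also express. Igha, the alpha heavy chain of plasma cells, was at 0, 43.2 and 985 against 6434, 32302 and 7333, Jchain at 49.1, 85.4 and 182 against 873, 5208 and 1430, and Ighg1 at 4.33, 0 and 0.987 against 5.71, 8834 and 3568. The large Pre-B library of mouse 2 was the highest in Igha, Jchain and Ighg1. Of the 13 tested members 8 had a log2 change above 0 and 5 below. Ighg2b, a large part of the large Pro-B sum, was at 7114, 9623 and 10176 against 2930, 9891 and 9685. Xbp1 was at 3065, 5186 and 4853 against 2354, 3782 and 3214.

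**Figure D5:**
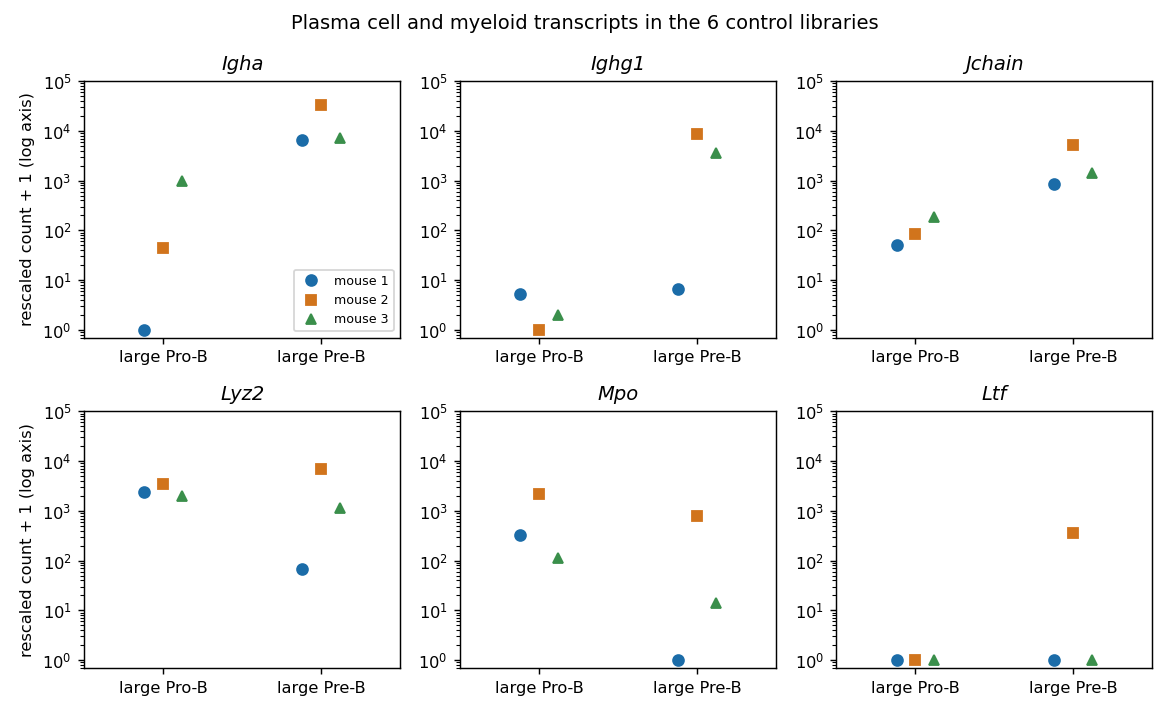
Levels (normalized count on the common scale + 1, log axis) of 3 plasma cell transcripts (upper row) and 3 myeloid transcripts (lower row) in the 6 control libraries, with a symbol for each mouse. The large Pre-B library of mouse 2 is the highest of its stage in all 6 panels.

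Myeloid markers summed to 5275 to 9373 in large Pro-B and to 2404, 13670 and 4854 in large Pre-B cells, with 1 of 11 tested higher (Ly6c2, a call lost without mouse 2, mouse 3 or the block) and 1 lower (Mpo, lost without the block), and Lyz2 was at 68 to 6760 in the large Pre-B libraries. Over all genes 7.80% were higher and 11.6% lower, so both myeloid counts were near those shares. The part of the plasma cell and myeloid transcripts in the changes of Ighm, Igkc, the variable segments and Sdc1 was not tested. Without mouse 2 Igkc, Sdc1 and Jchain were still called, the call of Ighm was lost and the variable segments were not tested, and the large Pre-B libraries of mice 1 and 3 also held Igha and Jchain. Of 7 tested T and NK cell markers 1 was lower, Nkg7, at 73.6, 307 and 352 against 14.3, 51.5 and 40.7, and none higher, and of 5 erythroid and megakaryocyte markers Car1 was lower, at 44.7, 119 and 147 against 0, 0 and 1.89, and Tfrc higher. Car1 passed the filter only through large Pro-B cells. The T and NK list summed to 3602 to 4184 in large Pro-B and 3833 to 5126 in large Pre-B cells, mostly from Lck, and the erythroid list to 7265 to 8145 and 8661 to 9514, mostly from Car2 and Tfrc, while hemoglobin and CD3 genes were at 11.4 or less in each library. The part of these markers in other results was not tested.

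The same step was set beside that of the 4 tet-LIN28B mice in a fit of 14 libraries, which share no mouse between the genotypes. Of the 1124 genes higher in controls 93.5% had the same direction in tet-LIN28B mice and 473 were called, and of the 1676 lower genes 94.0% and 611, with none called in the opposite direction. No gene of 17492 passed the test of the difference between the genotypes (0.00% by limma, with 598 at an unadjusted p under 0.05, a share below 5%, and none by edgeR). The log2 change of Dntt was -6.16 in controls and -5.14 in tet-LIN28B mice (difference 1.01, 95% interval 0.28 to 1.74, adjusted p = 0.930), that of Cish -5.46 and -3.48 (difference 1.98, 0.41 to 3.54), and that of Erg -5.06 and -3.45 (1.61, 0.54 to 2.69). These 3 genes were chosen after their values were seen, and their intervals are not corrected for the number of genes. Igll1 ran the other way (-1.80 and -2.41, difference -0.61, -1.27 to 0.05), and Flt3 was at -3.77 and -3.55 (0.23, -1.02 to 1.47).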

How the data were processed

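Large Pro-B and large Pre-B RNA was measured by poly-A RNA-seq (SMART-Seq v4 and Nextera XT, per the labels). The submitters' processing notes name STAR (2.7.1), RSEM (1.28), DESeq2 and mm10; the deposited signal is the authors' normalized count, counts divided by a size factor per library within each stage. Which annotation they used was not found in the labels or methods, and the authors' own fold changes and p-values, in separate tables, were not used. All values were whole reads within 0.1 read once divided by a per-library step, which gave 15.9 to 28.1 M reads per library; floors of 3 reads cover counting error only.

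The stage tables (37669 and 37851 genes) were joined on 35339 shared symbols and rescaled together by the median of ratios. Of 3131 shared symbols that looked altered (a dot in the symbol or an X before a digit), 2813 were restored. Genes with at least 10 in at least 3 of 6 libraries were tested on log2(value + 1) with limma 3.58.1 (lmFit, eBayes with trend; R 4.3.3), mouse and stage as terms, and a Benjamini-Hochberg adjusted p under 0.05. Mouse identity in the labels pairs the stages. Deviations from stage means correlated at 0.359, 0.051 and 0.219 within mice 1, 2 and 3. Between different mice they correlated at -0.329 to 0.143. The highest was large Pro-B of mouse 2 with large Pre-B of mouse 3, above the value within mouse 2. The genotype test added the interaction term over 14 libraries. edgeR 4.0.16 and DESeq2 1.42.0 on the recovered reads, other scalings, pseudocounts and filters, thinned reads, an added control Pro-B library and left-out mice were alternatives. Only the main limma fit of the 6 control libraries was tested on simulated data. Promoters are the RefSeq windows of 250 bases before to 50 after each start. Tables and figures used Python 3.11.15, pandas 2.3.3, numpy 2.4.6 and matplotlib 3.10.9.

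The members and gene lists were chosen with earlier results of these data known. Genes were named by a rule: a panel of stage markers, up to 5 called genes per list with the smallest adjusted p, and the 12 highest and 12 lowest log2 changes among called genes with a mean of at least 100 in a stage and no overlap between the stages, leaving out predicted genes, pseudogenes and receptor segments. Genes called in the genotype test would have been named too. List members outside this rule were named after their values were seen. Some list members are not reported here.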

Additional observations from a re-analysis of the deposited data

How the results depend on the processing

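Directions held in these data while the number of calls did not: of the 2800 genes called between the stages, none tested changed sign under any of the 17 alternatives. Removing the block cannot alter a log2 change in this balanced design, and the other alternatives reuse some or all of the same 6 libraries. The lack of sign changes is thus no independent support for the directions. Without the replicate block 332 genes were higher and 563 lower, and 893 of the 2800 calls were kept; mouse identity is a real pairing here, so that fit leaves the variation between mice in the error. In the fit of 14 libraries of both genotypes 354 were higher and 556 lower. With 1 mouse left out 572 to 905 were higher and 1105 to 1688 lower, in fits with 1 residual degree of freedom. The variance of a gene in these fits comes mostly from other genes. Dntt had an adjusted p of 4.2e-147 by limma without mouse 1, against 8.7e-10 with all 3 mice. A call kept in these fits thus does not show that the mice agree. Of the 152 named genes that were called, 97 kept the call without each mouse, 37 lost it without at least 1 mouse and 18 were no longer tested in at least 1 of these fits; 60 lost it without the block. The genotype comparison called 0 genes, and 0 to 1 with 1 mouse left out (Nnt.1, without control mouse 2, adjusted p = 0.038 by limma). With reads thinned to the smallest library 2755 genes were called, and 2645 of the 2756 calls still tested were kept.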
